A study of Mus musculus with 9 samples.

Results

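The immunity-related GTPases studied here are the 7 mouse genes Irgm1, Irgm2, Igtp, Iigp1, Tgtp1, Tgtp2 and Ifi47. They were chosen by gene symbol, and all 7 of 7 were found among the 55359 genes of the deposited count table. All 7 also passed the filter on low counts that left 17123 genes for testing. The counts come from omenta of C57BL/6 mice aged 7 to 10 weeks, each injected into the peritoneal cavity with 500000 cells of B16-OVA, a mouse melanoma line that expresses ovalbumin. Treatment followed on day 6 and was either PBS or OT-I T cells, specific for an ovalbumin peptide, that had been electroporated with interleukin-12 mRNA. These cells were delivered intraperitoneally (IP) or intravenously (IV), and the omenta were taken 18 h later. Each group had 3 libraries from 3 numbered mice, named here by group and mouse number (PBS 1, PBS 2, PBS 3, IP 2, IP 3, IP 4, IV 1, IV 2 and IV 4). All groups carried the tumour, and since no group received T cells without interleukin-12 mRNA, the contribution of the cytokine and that of the transferred cells cannot be told apart.

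Immunity-related GTPases are a family of interferon-inducible proteins that defend cells against microbes enclosed in membrane vacuoles, such as Toxoplasma gondii and Chlamydia. They fall into a regulator class and an effector class. The regulators Irgm1, Irgm2 and Igtp (also called Irgm3) carry the residues GMS in the first nucleotide-binding motif, sit on membranes of the cell itself and keep the effectors inactive there. The effectors Iigp1 (Irga6), Tgtp1 and Tgtp2 (both Irgb6) and Ifi47 (Irgd) carry GKS, as most GTPases do, and load onto the vacuole, which then breaks down. Interferons induce the family through transcription factors that bind gamma-activated sites (GAS) and interferon-stimulated response elements (ISRE) in promoters, among them the interferon regulatory factors at the ISRE.

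Promoter sequence was available for 6 of the 7 genes, as the 250 bases before and 50 after the start given by RefSeq on GRCm38.p6. Both motifs were searched on both strands, GAS as TTCNNNGAA and ISRE as GAAA, any 2 bases and GAAA again. Igtp, Irgm2, Tgtp1 and Tgtp2 each held 1 GAS match followed, after 2 bases, by 1 ISRE match on the same strand. The stretches of 80 bases around these matches, and around those of Irgm1, are shown as a description. Matches are in capitals, and each sequence reads 5′ to 3′ on the strand of the gene. Members with and without a GAS match rose in the counts described further on.
Igtp: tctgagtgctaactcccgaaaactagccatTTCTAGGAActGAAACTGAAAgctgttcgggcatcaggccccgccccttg
Irgm2: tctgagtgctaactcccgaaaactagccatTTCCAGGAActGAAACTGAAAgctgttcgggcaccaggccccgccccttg
Tgtp1: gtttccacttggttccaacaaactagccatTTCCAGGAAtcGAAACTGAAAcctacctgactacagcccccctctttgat
Tgtp2: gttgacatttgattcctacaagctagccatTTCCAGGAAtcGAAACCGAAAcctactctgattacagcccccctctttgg
Irgm1: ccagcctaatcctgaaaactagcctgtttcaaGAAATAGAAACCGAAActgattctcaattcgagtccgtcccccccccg
The stretches lie at chr11:58199481-58199560 (+ strand) for Igtp, chr11:58214872-58214951 (+ strand) for Irgm2, chr11:48992285-48992364 (- strand) for Tgtp1, chr11:49064244-49064323 (- strand) for Tgtp2 and chr11:48871403-48871482 (- strand) for Irgm1. Compared position by position without gaps, Igtp and Irgm2, neighbours on chromosome 11, had 78 of the 80 bases in common, and Tgtp1 and Tgtp2 had 57. After the ISRE match the letters of Tgtp1 and Tgtp2 are shifted against each other, so the count of 57 understates their likeness. Irgm1 held 2 ISRE matches that overlap each other and no GAS match. Ifi47 held neither set of letters in the window searched. Of 32851 promoters of the same length, 8.3% held the GAS letters, 3.44% the ISRE letters and 0.454% both. The joined arrangement (TTCNNNGAA, any 2 bases, GAAA), searched after the members' sequences had been read, occurred in 37 promoters (0.113%). It asks for only the first GAAA of the ISRE letters, so these promoters need not hold an ISRE match. A match of letters is a description and does not show that a factor binds there.

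Library totals ran from 7379798 counts in IV 2 to 44626843 in PBS 3. Across genes, IV 4 was more like PBS 3 (Pearson's r of log2 CPM 0.9815) than like IV 1 (0.9484) or IV 2 (0.9531), so calls in IV are also given without IV 4 where these differ. The closest pair within a group, IP 2 and IP 3, differed by 7.65 times the sampling noise (chi-square per degree of freedom), and every library was kept as a separate sample. Markers of adipocytes, mesothelium and the melanoma were each above 0 in all 9 libraries, with 5 of 5 listed markers in each case. Pancreatic acinar markers summed to 9.43 to 20.3 CPM in the PBS libraries and IV 4, and to between 169.5 CPM (IP 2) and 21400 CPM (IV 1) in the other treated libraries, without a call in either comparison with PBS by edgeR or limma voom and with 8 of 8 called by DESeq2 in both. Without IV 4, 3 of 8 were called by edgeR in IV and 5 of 8 in IP, both as higher than PBS. CPM are counts scaled to 1e+06 per library, with TMM scaling between libraries. With library totals in place of TMM the median of all genes moved by -0.169 in IP against PBS, and the calls there were 2466 higher and 3561 lower against 3197 and 2429 with TMM. In IP against IV the same change turned 1015 higher and 765 lower into 720 and 1038.

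All 7 members were higher after T cells by either route than after PBS, and the lowest treated library lay above the highest PBS library for each of them. In IP against PBS 7 of 7 passed the test as higher (edgeR adjusted p under 0.05, adjusted over all 17123 genes), where 18.7% of all genes tested did and 14.2% passed as lower. In IV against PBS 7 of 7 also passed as higher, against a background of 10.4% higher and 5.66% lower. Over all genes, 28.4% had IP libraries wholly above PBS and 16.5% had IV libraries wholly above PBS. The median log2 fold change of the members was 3.38 in IP and 3.20 in IV, beside medians over all genes of 0.02 and 0.04. Both comparisons use the same 3 PBS libraries. These are whole-tissue values, in which more cells of a responding type and more RNA per cell cannot be told apart.

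**Figure D1:**
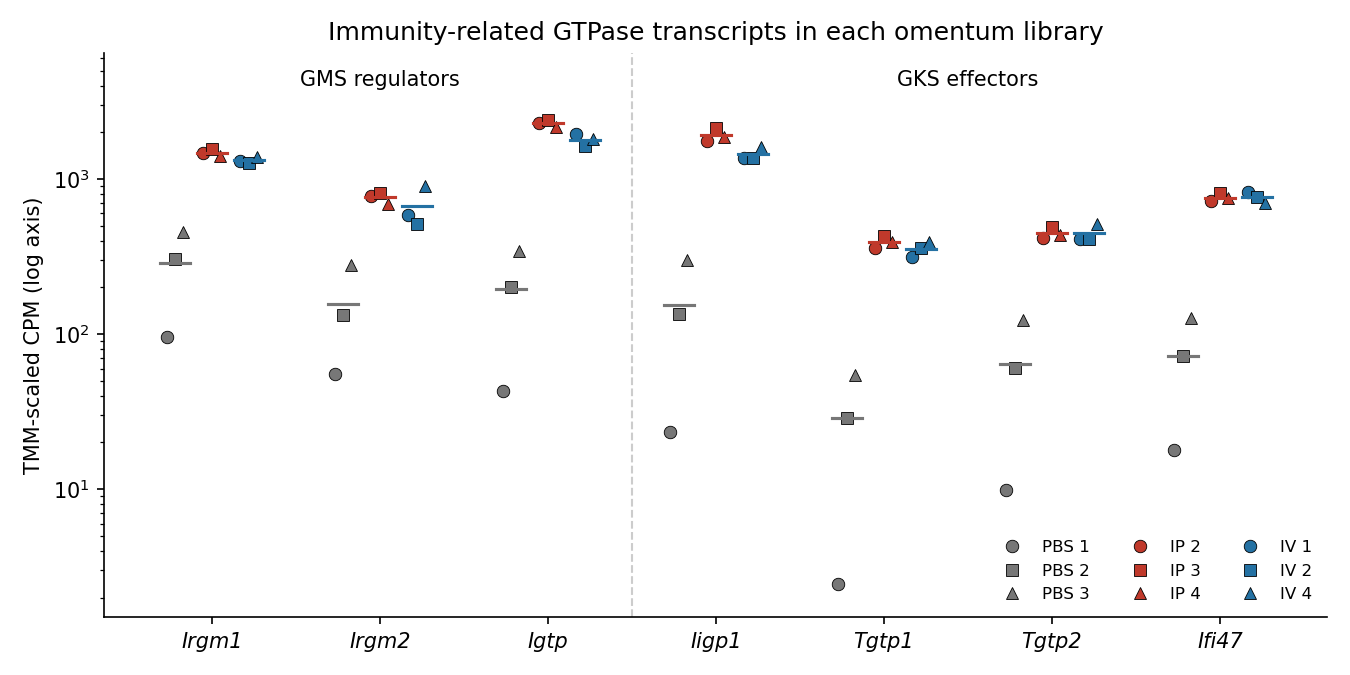
Each point is 1 library, as TMM-scaled CPM on a log axis, for the 3 regulators and the 4 effectors, with a line at the mean of each group. In every gene the 6 treated libraries sit above the 3 PBS libraries, and PBS 1 is the lowest point, down to 2.43 CPM for Tgtp1.

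Among the regulators, Irgm1 was measured at 95.1, 304 and 458 CPM in PBS 1, PBS 2 and PBS 3. Its level was 1469, 1558 and 1400.4 CPM in IP 2, IP 3 and IP 4, and 1313, 1263 and 1381 CPM in IV 1, IV 2 and IV 4. PBS 1 thus stood well under the other PBS mice, while the 6 treated libraries spanned only 1.23-fold. The log2 fold change was 2.37 ± 0.42 (SE; n = 3 per group, edgeR adjusted p = 0.0016) in IP and 2.21 ± 0.42 in IV (edgeR adjusted p = 0.00765).

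Irgm2, the second regulator, had 55.1, 133 and 279.6 CPM in PBS 1, PBS 2 and PBS 3. It reached 783, 819 and 690.3 CPM in IP and 586, 513 and 900.5 CPM in IV. Here the IV libraries spread most, and IV 4 was the highest of all 9. Its log2 fold changes, 2.29 ± 0.47 in IP (edgeR adjusted p = 0.00413) and 2.10 ± 0.47 in IV (edgeR adjusted p = 0.016), were the smallest among the 7 members.

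Igtp, whose product is the regulator Irgm3, went from 43.1, 199.9 and 343 CPM in PBS to 2302, 2402 and 2169.7 CPM in IP. Its IV libraries had 1952, 1625 and 1814 CPM, all under the lowest IP library. With 3.55 ± 0.60 in IP (edgeR adjusted p = 0.00163) and 3.20 ± 0.59 in IV (edgeR adjusted p = 0.00826), its log2 fold change was nearer to those of the effectors than to those of Irgm1 and Irgm2. Igtp and Irgm2 share 162 exon bases in GENCODE M21, and 11.6% of the 51-base windows of Igtp transcripts also occur in Irgm2 transcripts, so a part of their reads could be assigned to either.

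Of the effectors, Iigp1 had 23.5, 135.7 and 301 CPM in PBS 1, PBS 2 and PBS 3. It had 1759, 2146 and 1854 CPM in the IP libraries and 1375, 1357 and 1614 CPM in the IV libraries. Every treated library was far above every PBS library, and the IP libraries lay above the IV ones. The log2 fold change was 3.65 ± 0.75 in IP (edgeR adjusted p = 0.00622) and 3.24 ± 0.74 in IV (edgeR adjusted p = 0.0218).

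Ifi47 had 17.9, 72.6 and 128 CPM in PBS, 721, 807 and 751 CPM in IP, and 827, 765 and 696 CPM in IV. The treated libraries of both routes overlapped fully and spanned 1.19-fold, the narrowest range among the members. Its log2 fold changes were 3.38 ± 0.56 in IP (edgeR adjusted p = 0.00133) and 3.39 ± 0.56 in IV (edgeR adjusted p = 0.00501). Ifi47 was called in both comparisons under each alternative that was run.

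Tgtp1 and Tgtp2 encode nearly the same protein, Irgb6, and 81.1% of the 51-base windows of Tgtp1 transcripts and 86.4% of those of Tgtp2 also occur in transcripts of another gene. The reads were 51 bases long at each end, per the labels' protocols, and the sources used here do not state how reads that match both genes were counted. The level of each is therefore uncertain. Tgtp1 had 2.43, 28.9 and 54.9 CPM in PBS, a 22.6-fold range, then 359, 426 and 394 CPM in IP and 312, 358 and 390.04 CPM in IV. Tgtp2 had 9.91, 60.9 and 123 CPM in PBS, 415, 488 and 435 CPM in IP, and 411, 413 and 516 CPM in IV. For both genes PBS 1 stood far under the other libraries, and IP and IV overlapped.

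In IP the log2 fold change was 3.77 ± 0.90 for Tgtp1 (edgeR adjusted p = 0.014) and 2.79 ± 0.71 for Tgtp2 (edgeR adjusted p = 0.0164). In IV it was 3.62 ± 0.89 for Tgtp1 (edgeR adjusted p = 0.0317) and 2.79 ± 0.71 for Tgtp2 (edgeR adjusted p = 0.0319). With the counts of both genes summed, the log2 fold change was 3.17 ± 0.76 in IP (edgeR adjusted p = 0.0126) and 3.10 ± 0.75 in IV (edgeR adjusted p = 0.028).

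The IV calls rested on few libraries. Calls over all genes in IV also moved with the library left out, over a range given in the section on processing. Whether the members lost more calls than all genes did was not tested. Without PBS 2, only Ifi47 of the 7 was still called in IV against PBS. Without IV 4 there were 3 (Irgm1, Igtp and Ifi47), and without IV 1 or IV 2 there were 4, with Iigp1, Tgtp1 and Tgtp2 lost each time. Without IP 2 or IP 3, which share the estimate of spread, 5 were called. The log2 fold changes in IV without IV 4 ran from 1.81 (Irgm2) to 3.53 (Tgtp1). In IP against PBS the only calls lost by leaving out 1 library were those of Tgtp1 and Tgtp2 without PBS 2. Over all genes, 5094 of 17788 tested were called in IP without PBS 2, against 5626 of 17123 in the main fit. With no filter on low counts 4 members were called in IP and 1 in IV, and over all genes 5025 of 32922 tested were called in IP. The direction of the members' changes was the same under all of these settings.

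Routes of delivery were compared directly next, since the design sets local against systemic delivery. None of the 7 members passed in IP against IV (0 of 7 by edgeR, and 0 by DESeq2 and limma voom), where 10.4% of all genes did (5.93% higher in IP and 4.47% lower), and 0 of 7 had an unadjusted p under 0.05, where 4406 of the 17123 genes did. The edgeR adjusted p-values ran from 0.744 for Igtp to 0.999 for Tgtp2. For Irgm1 the log2 difference, IP minus IV, was 0.16 with a 95% interval from -0.73 to 1.05. Its range was -0.81 to 1.20 for Irgm2, -0.86 to 1.57 for Igtp, -1.14 to 1.95 for Iigp1 and -1.14 to 1.13 for Ifi47. It was wider for Tgtp1 (-1.71 to 2.01) and Tgtp2 (-1.52 to 1.51), and every upper bound lay above 1, which is a 2-fold higher level in IP.

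In 3 of 7 members (Irgm1, Igtp and Iigp1) all IP libraries lay above all IV libraries, as in 17.9% of all genes tested, while 31.4% had groups that did not overlap in either direction. The spread used in the test is shared with the PBS libraries. When only the IP and IV libraries were fitted, Igtp differed by 0.33 (edgeR adjusted p = 0.112) and Iigp1 by 0.39 (edgeR adjusted p = 0.105), still short of the threshold. The differences of Tgtp2 and Ifi47 were near 0 and changed sign when single libraries were left out, and with the mouse number as a block all 7 differences were below 0, down to -0.77 for Tgtp2.

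**Figure D2:**
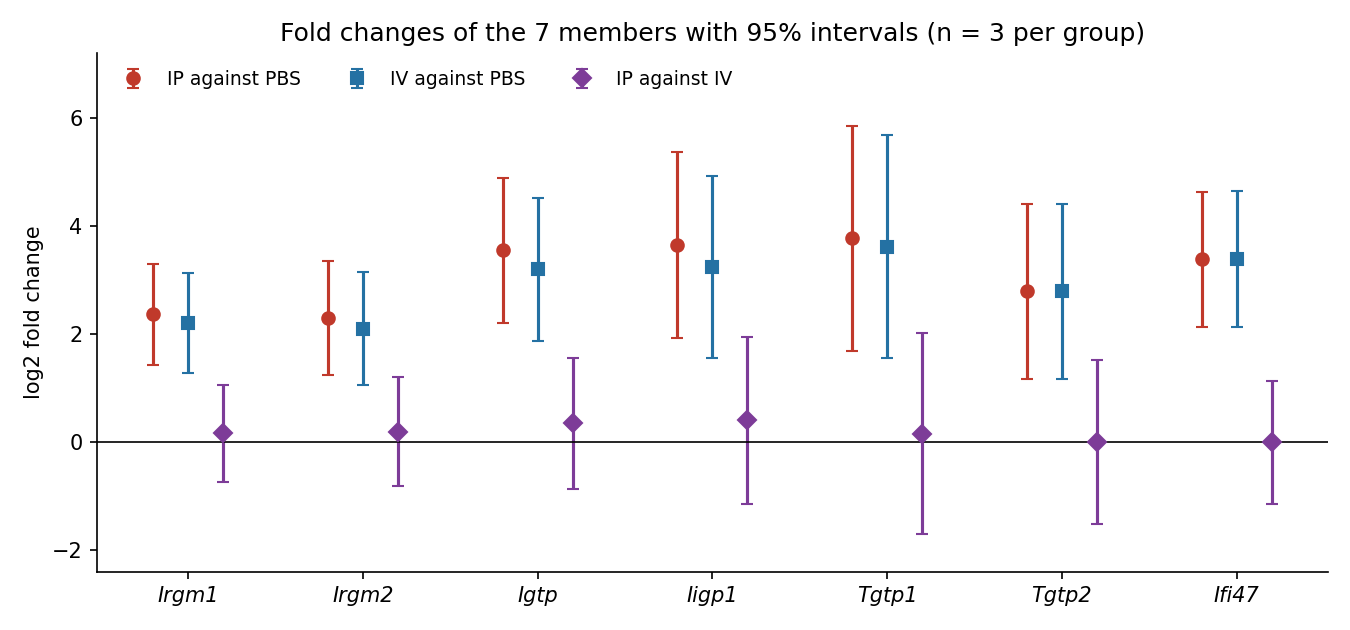
Points are log2 fold changes of the 7 members in IP against PBS, IV against PBS and IP against IV, and bars are 95% intervals from the edgeR fit with 3 libraries per group. The intervals of both comparisons with PBS lie above 0, from 1.05 upwards, and all 7 intervals of IP against IV include 0.

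Together the 7 genes took 0.0263%, 0.0937% and 0.186% of the counts in PBS 1, PBS 2 and PBS 3. Their share was 0.734%, 0.804% and 0.7295% in IP and 0.637%, 0.639% and 0.7785% in IV. IV 4, which resembled PBS 3 over all genes, was at the level of the other treated libraries here. Its members were 3.01-fold (Irgm1) to 7.11-fold (Tgtp1) above those of PBS 3. Among the PBS mice the members also differed together, with PBS 3 above PBS 1 by 4.82-fold for Irgm1 and by 22.6-fold for Tgtp1.

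The make-up of the family differed between treated and PBS omenta. To compare genes, CPM were divided by the exon length of each gene in GENCODE M21 (CPM per kb). The 4 effectors summed to 0.293, 0.4402 and 0.5001 of the summed regulators in PBS 1, PBS 2 and PBS 3. In the treated libraries this ratio was 0.528 to 0.595 in IP and 0.598 to 0.685 in IV. Treated and PBS libraries did not overlap, with a narrow gap between PBS 3 and IP 2. These ratios are descriptions and were not tested.

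Relative to Irgm1, on the scale of CPM per kb, Igtp stood at 1.303 to 2.15 in PBS and at 3.7 to 4.5 in the treated libraries. Iigp1 went from 0.247 to 0.654 in PBS to 1.05 to 1.375 after T cells, and Ifi47 from 0.441 to 0.655 to 1.15 to 1.48. Irgm2 was the exception, with 0.686 to 0.9604 in PBS and 0.6402 to 1.03 in the treated libraries, which overlap. Tgtp1 had 0.245 to 0.474 times the counts of Tgtp2 in PBS and 0.756 to 0.905 times in the treated libraries, again without overlap. That ratio is uncertain, since most of the sequence of either gene also occurs in the other and Tgtp1 shares 223 exon bases with Gm12185. Only Irgm2 had smaller log2 fold changes against PBS than Irgm1, so the ratios to Irgm1 restate the fold changes given above. How often other pairs of genes show such ratios without overlap was not counted.

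**Figure D3:**
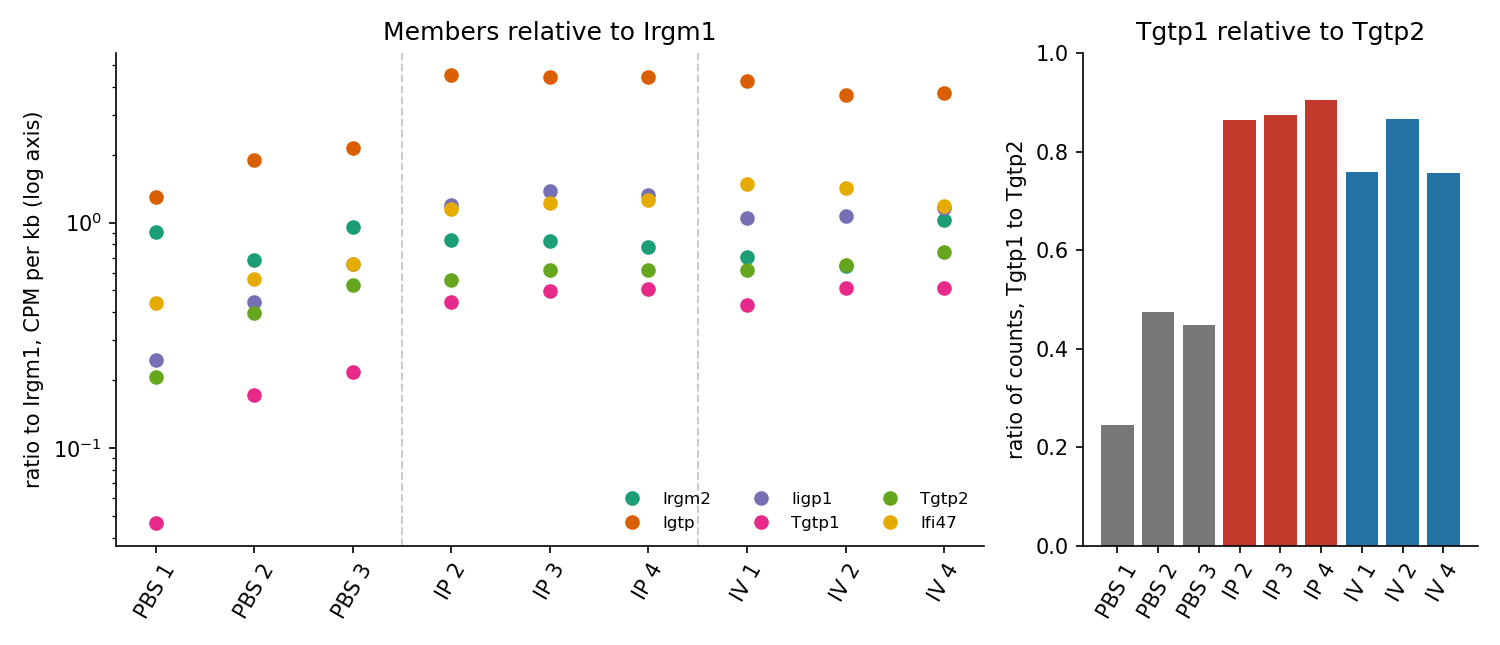
The left panel gives, per library, each member's CPM per kb divided by that of Irgm1 on a log axis, and the right panel the counts of Tgtp1 divided by those of Tgtp2. In the 6 treated libraries 5 of the 6 ratios to Irgm1 lie above all PBS values, while that of Irgm2 overlaps, and Tgtp1 to Tgtp2 is 0.756 or more. The ratios restate the fold changes of the members and were not tested, and that of Tgtp1 to Tgtp2 is subject to their shared sequence.

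Ordered by CPM per kb in IP, Igtp came first at 1133 ± 57.6 (SD, n = 3), followed by Iigp1 at 329.7 ± 34.7 and Ifi47 at 307 ± 17.8, whose libraries overlapped. Irgm1 followed at 254 ± 13.6, Irgm2 at 207 ± 18, Tgtp2 at 152 ± 12.8 and Tgtp1 at 123 ± 10.5. In IV Igtp was again first, at 889 ± 81.3 CPM per kb. Ifi47 came next at 308 ± 26.5, then Iigp1 at 249 ± 24.7, Irgm1 at 227 ± 10.2 and Irgm2 at 181 ± 55.8, and the libraries of these last 3 overlapped. In PBS Igtp led at 96.6 ± 74.1, followed by Irgm1, Irgm2, Ifi47, Iigp1, Tgtp2 and Tgtp1, and this order was the same in each of the 3 mice although the levels differed between them. Ifi47 and Iigp1 were nearly level in PBS 3, at 51.66 and 51.62 CPM per kb. Exon lengths are those of GENCODE M21, which may differ from the annotation the authors counted on, and the order of the Tgtp genes is subject to their shared sequence.

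Other genes of the family and of its pathway were taken from lists. Among other immunity-related GTPase genes, 12 were in the table and 11 were tested, of which 8 rose and 0 fell in IP, and 6 rose and 0 fell in IV. In IV the call of F830016B08Rik was lost with DESeq2 size factors or library totals in place of TMM, which left 5, and 4 were called without IV 4. Gm12250, which encodes the effector Irgb10, went from 4.42, 23.8 and 47.8 CPM in PBS to 395 to 434.5 CPM in IP and 295 to 329 CPM in IV. Gm4841 rose by 4.62 on the log2 scale in IP (edgeR adjusted p = 0.00146) and by 3.95 in IV (edgeR adjusted p = 0.00877). Gm4951 rose by 3.79 and 3.21, and Gm5431 by 2.54 and 1.67. Irgq, a divergent family member, had 23.7 to 35.1 CPM in PBS, 28.6 to 30.5 in IP and 22.6 to 37.2 in IV, and did not pass (edgeR adjusted p = 0.844 and 0.762).

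All 11 guanylate-binding protein genes, a related group of interferon-induced GTPases that act on the same vacuoles, rose in both comparisons. Without IV 4, 8 of the 11 were called in IV against PBS, and Gbp5, Gbp9 and Gbp10 were not. Their median log2 fold change was 3.83 in IP and 3.43 in IV. Gbp11 rose by 5.81 in IP and 4.04 in IV, Gbp8 by 3.83 and 3.60, Gbp3 by 2.98 and 2.52, and Gbp7 by 2.32 and 2.26. In IP against IV 0 of 11 passed by edgeR and by DESeq2, 1 passed by limma voom, and 1 had an unadjusted edgeR p under 0.05.

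Upstream, the cytokine gene Ifng differed more between the routes than the GTPases did. Ifng, which encodes interferon-gamma, had 0.0819, 1.08 and 1.32 CPM in PBS, 826, 748 and 570.5 CPM in IP and 11.3, 16.3 and 12.4 CPM in IV. IP thus held 53.6 times the mean of IV (log2 difference 5.76, edgeR adjusted p = 0.000824), while the means of the 7 members in IP were 0.996 (Ifi47) to 1.325 (Iigp1) times those in IV. Of the 9 genes of interferon-gamma signalling, 6 rose and 0 fell in each comparison with PBS, and 1 (Ifng) was higher in IP than in IV. Between the routes 3 were called by DESeq2, 2 by limma voom and 2 (Ifng and Jak2) by edgeR without IV 4. The call of Jak2 in IV was lost with library totals (edgeR adjusted p = 0.0714). The transcription factor gene Irf8 rose by 2.77 in IP and 2.09 in IV, Socs1, a feedback inhibitor, by 4.60 and 3.03, and the kinase gene Jak2 by 1.09 and 0.59. The receptor genes Ifngr1 (log2 fold change 0.05 in IP, edgeR adjusted p = 0.833) and Ifngr2 (0.02, edgeR adjusted p = 0.928) did not pass.

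Irf1, which encodes an interferon regulatory factor, falls outside the rule for naming genes and was picked after its values were seen. Irf1 had 31.1, 125 and 178 CPM in PBS, 1149 to 1218 CPM in IP and 588 to 639 CPM in IV (log2 difference IP minus IV 0.95, edgeR adjusted p = 0.2196). Its difference between the routes did not pass.

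**Figure D4:**
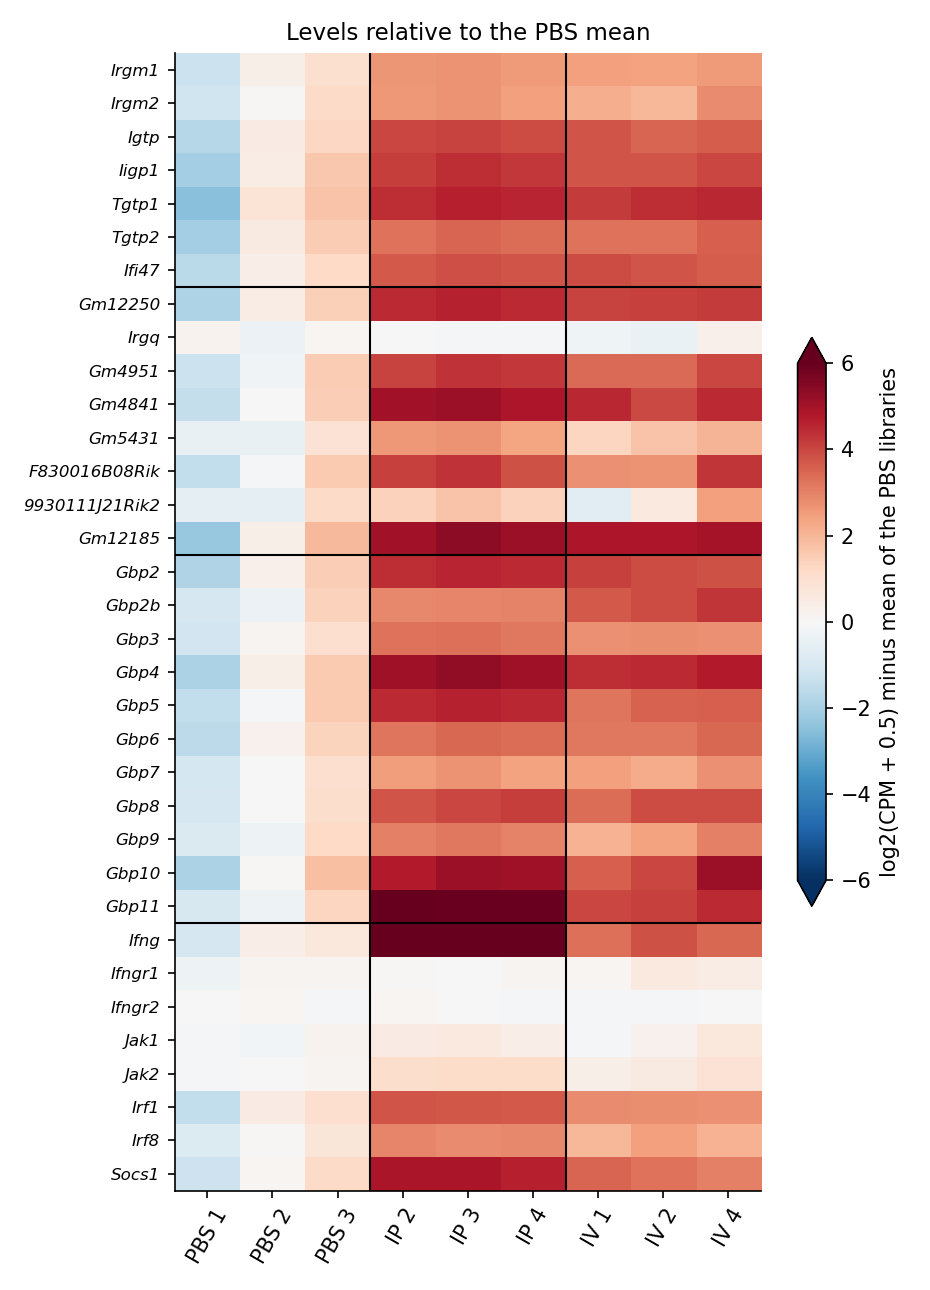
Rows are 34 genes (the 7 members, then other immunity-related GTPases, guanylate-binding proteins and interferon-gamma signalling, those tested with a mean of at least 5 CPM, leaving out 1 listed gene that is not reported here) and columns are libraries. Colour is log2(CPM + 0.5) minus the mean of the PBS libraries, with colours saturated beyond the ends of the scale, which Ifng and Gbp11 reach or exceed in IP. The members are similarly red in IP and IV, and Ifng is much darker in IP.

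Among 8 tested genes of type I interferon signalling, 6 rose and 0 fell in IP and 5 rose and 0 fell in IV. With library totals in place of TMM, 5 rose and 1 (Ifnar1) fell in IP and 4 rose in IV, and without IV 4 there were 6 called in IV. Usp18, a negative regulator of that pathway, rose from 43.7 to 71.1 CPM in PBS to 327 to 457 CPM in IP and 151 to 174 CPM in IV (log2 fold change 2.6996 in IP and 1.38 in IV), and was higher in IP than in IV (1.32, edgeR adjusted p = 0.00283). Irf7 rose by 2.77 and 1.96, Stat2 by 2.19 and 1.78 and the receptor gene Ifnar2 by 1.05 and 0.66. Ifnb1, the interferon-beta gene, had too few counts to be tested and was at 0 CPM in all 3 PBS libraries, at 0.1685 to 0.508 CPM in IP and at most 0.133 CPM in IV.

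Genes of the machinery that works with the GTPases were taken from lists as well. The autophagy conjugation proteins help regulators and effectors reach their membranes. The list of 14 genes also holds Becn1 and Ulk1, which are not part of the conjugation machinery. Of these 14 genes 3 rose and 0 fell in IP, a share near the 18.7% of all genes that were higher there. In IV 0 passed by edgeR or limma voom, with 1 by DESeq2 and 1 at an unadjusted edgeR p under 0.05. Gabarap rose by 0.81 in IP (edgeR adjusted p = 0.00805), Map1lc3a by 0.54 and Atg12 by 0.34, while Atg5 (0.33, edgeR adjusted p = 0.0833) did not pass. With library totals in place of TMM, Gabarap alone passed in IP, and without IV 4 Gabarap and Map1lc3a were called in IV. Of 6 genes for ubiquitin ligases and adaptors recruited to vacuoles, 4 rose and 1 fell in IP, and 1 rose and 0 fell in IV. Over all genes tested, 18.7% were higher and 14.2% lower in IP, and 10.4% and 5.66% in IV. Trim21 rose by 1.77 in IP and 1.43 in IV. Sqstm1, the adaptor p62, Traf6 and Tax1bp1 rose by 0.73, 0.59 and 0.43 in IP, and Optn fell by 0.42. With library totals in place of TMM, Trim21 and Sqstm1 rose and Optn fell in IP, and without IV 4 Trim21 rose and Optn and Nbr1 fell in IV. In IP against IV, Sqstm1 (0.78, edgeR adjusted p = 0.0102) and Traf6 (0.64, edgeR adjusted p = 0.0189) were higher in IP, and the call of Traf6 was lost with library totals (edgeR adjusted p = 0.0777).

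The members' pattern over the 9 libraries was compared with that of other genes. Each member correlated with the mean of the others at Pearson's r between 0.985 (Irgm2) and 0.9997 (Irgm1), on log2 CPM. Of 11384 other genes with a mean of at least 5 CPM, the 5 most like the members' mean were Gm12185 (r = 0.9992), Gbp6 (0.9985), Gm12250 (0.998), Tap1 (0.9958) and Gbp4 (0.9944). Gm12185 shares 223 exon bases with Tgtp1 in GENCODE M21, so their counts are not independent. Tap1, a peptide transporter gene of antigen presentation, rose by 2.55 in IP and 2.19 in IV. The 9 points form 2 clusters, treated and PBS, and these r values describe that pattern without a test.

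Markers of other cell types moved in the same libraries. The 5 monocyte markers summed to 73.6 to 219 CPM in PBS, 1041 to 1108 CPM in IP and 529 to 838 CPM in IV, with 5 of 5 higher in IP and 4 of 5 in IV (3 without IV 4). The 8 T cell markers summed to 31.5 to 79.1 CPM in PBS, 187 to 204.5 in IP and 76.8 to 212 in IV, where IV 1 was at the level of PBS 3 and 5 of 8 were called, or 3 without IV 4. In IP 7 of 8 were higher, or 6 with library totals. Cd4 was the exception, with log2 fold changes of -0.93 in IP (edgeR adjusted p = 0.109) and 1.11 in IV (edgeR adjusted p = 0.0865). It was lower in IP than in IV (-2.04, edgeR adjusted p = 0.0121). The 8 macrophage markers summed to 896 to 1504 CPM in PBS, 2556 to 2740 in IP and 2127 to 2978 in IV, but they did not move together. In IP 4 rose (Lyz2, Cd68, C1qa and Csf1r) and 3 fell, with log2 fold changes of -1.11 for Mrc1, -2.29 for Cd163 and -0.46 for Mertk, and in IV 3 rose and 0 fell. The call of Csf1r in IP was lost with library totals (edgeR adjusted p = 0.0697) and without IV 4 (edgeR adjusted p = 0.0537). Neutrophil markers summed to 9.79 to 20.1 CPM in PBS, 110.2 to 168 in IP, 92.5 and 171 in IV 1 and IV 2 and 25.6 in IV 4, the library with the lowest level among the treated. The 5 B cell markers summed to 44.2 to 54.1 CPM in PBS, 27.8 to 51.1 in IP and 106.5 to 401 in IV. Melanoma markers summed to 24290.0 to 27080.0 CPM in PBS, 12810.0 to 14440.0 in IP and 17320.0 to 22380.0 in IV, with 4 of 5 lower in IP and 3 of 5 in IV (2 without IV 4). No listed marker was at 0 in all 3 PBS libraries. The part of these cells in the members' levels was not tested.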

How the data were processed

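Poly(A) RNA of 9 omenta was sequenced as read pairs of 51 bases per end with a directional kit, per the labels' protocols. The submitters' processing notes name STAR 2.7.9, featureCounts, limma and mm39. For annotation release, strand setting and multimapping reads, the sources used here give nothing. The deposited table of whole-number counts was used as deposited. The deposited log2 CPM of 18833 genes, scaled by library totals as checked against the counts (largest difference 5e-14), entered 1 alternative. Gene identifiers were matched to symbols of GENCODE M21 (52083 of 55359 matched). Counts were fitted with edgeR 4.0.16 in R 4.3.3 (filterByExpr, TMM, robust quasi-likelihood, all 9 libraries, no covariates), two-sided, with Benjamini-Hochberg adjustment over 17123 genes and a threshold of 0.05. The SE of a log2 fold change is its size over the root of F, and 95% intervals use its degrees of freedom. The script was tested on simulated data.

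The members and lists were chosen with earlier results of these data known. Genes named from a list are up to 4 with the smallest p in IP against PBS, and any that fell. Other listed genes that the text names, such as Irf1, Irgq, Ifngr1, Ifngr2, Ifnb1, Cd4 and the macrophage markers, were picked after their values were seen. The genes most like the members are the 5 with the highest r. A listed gene that is not reported here stayed in the fit and the counts. Alternatives were DESeq2 1.42.0, limma 3.58.1, other scalings and filters, a fit of only the groups compared, the mouse number as a block, Tgtp1 and Tgtp2 summed, and each library left out. For the lists, the other scalings and the fit without IV 4 were chosen after seeing the data. Depth of 7379798 to 44626843 counts limits low values most in IV 2. In the main fit, p-values weigh each difference against a spread between mice that was estimated from all 9 libraries, with 3 mice per group.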

Additional observations from a re-analysis of the deposited data

How the results depend on the processing

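The log2 fold changes of the 7 members against PBS were above 0 under every alternative, and the members called were at least 5 of 7 in IP except with no filter on low counts, which left 4. In IV, no filter left 1, the replicate block 4, and leaving out 1 library each time between 1 and 7. Same-numbered mice are not said to be related and did not deviate together (r of deviations -0.399 for IP 4 with IV 4 and 0.1 for PBS 2 with IP 2), so the pairing was not adopted. Over all genes, the calls in IV against PBS were 1210 with only the 2 groups compared, 4442 without PBS 3 and IV 4 together (a setting chosen after seeing the data) and 980 to 4580 with 1 library left out. In IP against IV they were 2759 by DESeq2, 1134 with the replicate block, 3486 without PBS 3 and IV 4 together and 673 to 2873 with 1 library left out. The differences in IP against IV, none of them called, changed sign. With the replicate block they were -0.32 for Irgm1, -0.29 for Irgm2, -0.24 for Igtp, -0.37 for Iigp1 and -0.76 for Tgtp1, as well as -0.77 for Tgtp2 and -0.56 for Ifi47, which were below 0 before. That of Tgtp2 was 0.00025 with DESeq2 size factors, 0.00042 by DESeq2, 0.0098 by limma voom and 0.13 without PBS 3 and IV 4 together. With 1 library left out it ran from -0.069 to 0.12 for Tgtp2 and from -0.064 to 0.062 for Ifi47. The cause of these changes was not tested.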

Other observations

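An arrangement seen in 4 members (TTCNNNGAA, any 2 bases, GAAA) was found in the promoters of 37 genes, of which 17 were tested. It joins the GAS letters to only the first GAAA of the ISRE letters, so an ISRE match need not be present. Beside the 4 members, 13 of these were tested, and 6 rose and 0 fell in IP against PBS (background 18.7% higher), with a median log2 fold change of 0.80. In IV against PBS 7 rose and 0 fell (background 10.4% higher), with a median of 1.23. Those that rose in both were Gm12185 (4.40 in IP and 4.12 in IV), Gm12216 (2.60 and 2.72), Ifi35 (1.97 and 1.70), 4930512H18Rik (1.72 and 1.76), Il18r1, the interleukin-18 receptor gene (1.45 and 1.85), and Adar, an RNA-editing enzyme gene (1.01 and 0.65). Bach2 was called in IV (1.23, edgeR adjusted p = 0.0451). In IP its log2 fold change was 0.50 (edgeR adjusted p = 0.331). Gm12185 is on the list of other immunity-related GTPases and shares 223 exon bases with Tgtp1, so its counts are not independent of the members. The arrangement was chosen after reading the promoters of members that rose, and no test was made of it. The counts set beside the background are therefore a description.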
